A study of Mus musculus with 6 samples.

Results

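In oligodendrocyte precursor cells (OPCs) treated with IFN-γ, 90 of 10115 protein-coding genes were chosen by their totals, that is, because the enhancer input summed over the elements around the gene was higher than in untreated cells. The activity-by-contact (ABC) model multiplies the activity of each candidate element by its contact with the transcription start site (TSS) of a gene. The total of a gene is this product added over all of its elements, the gene's own promoter included, in arbitrary units. A gene was a member when the log2 ratio of its totals, IFN-γ-OPC over Ctr-OPC, was at least 0.5. This threshold was passed by 106 genes, 1.05% of the protein-coding genes listed in both conditions, and 16 of them were set aside by symbol (H2-, Gbp, Cxcl, Psmb, Tap and Ifit genes). In the opposite direction, 32 genes (0.316%) had a log2 ratio of -0.5 or less. The totals chose the members, so all ratios below describe them and none was tested.

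The cells were cultured primary OPCs of mice with the genotype Sox10-Cre/RCE, labelled C57BL/6j although the methods give the RCE parent a mixed C57BL/6xCD1 background, in which Cre driven by Sox10 marks the oligodendrocyte lineage with GFP, isolated from pooled brains of young pups of both sexes by sorting for GFP or by magnetic selection for CD140a. Ctr-OPCs were kept in proliferation medium, and IFN-γ-OPCs received the same medium with 100 ng/mL IFN-γ, given 24 h after passaging. These 24 h are the time of addition and not the length of the treatment. H3K27ac-HiChIP, which enriches chromatin contacts of regions carrying the active mark H3K27ac, gave the contacts, while the activity of each element came from ATAC-seq and from CUT&RUN for H3K27ac. The 3 libraries of a condition were pooled into 1 table, so no value below has a replicate error, no difference could be set against the spread between replicates, and the depth is unknown.

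IFN-γ signals through JAK kinases to genes that carry GAS motifs, and interferon regulatory factors made in response bind the related ISRE motif. Enhancers that carry these motifs gain accessibility and H3K27ac, and several genes at one locus can draw on the same enhancer. OPCs divide and mature into myelinating oligodendrocytes, and in an inflamed brain they can switch on immune genes, among them those of antigen presentation.

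The defining genes of OPCs were target genes, and so were most of the markers examined for other cell types. All 20 OPC lineage genes examined, among them Pdgfra, Sox10 and Olig2, were target genes in both tables, at promoter activity quantiles of 0.697 to 0.995 in Ctr-OPCs against 0.714 to 0.994 in IFN-γ-OPCs. None of these 20 was a member. Of 20 microglia markers, 11 were also target genes in each table, 9 of them in both at quantiles of 0.455 to 0.802 and of 0.444 to 0.825. The summed total of these 9 was 9.40 in Ctr-OPCs against 8.78 in IFN-γ-OPCs. One of them, P2ry12, was a member, and the part of microglia in its value was not tested.

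Most members had little enhancer input to begin with. Their median total was 0.258 in Ctr-OPCs against 0.377 in IFN-γ-OPCs, while the medians over all genes were 0.973 and 0.920. The log2 ratios ran from 0.50 to 1.40 with a median of 0.57, beside a median of -0.08 over all genes, and the total at least doubled in 3 members, Casp12, Sh3bgrl and Samd9l. Of the 90 members, 84 lay in the lowest quintile of the Ctr-OPC totals, and 76 lay in the lowest quintile of the mean of both totals. Only Zfp488, Igtp and Irgm2 exceeded the median Ctr-OPC total of all genes. Ratios varied most among genes with low totals, with an SD across genes of 0.24 in the lowest quintile of the mean total and of 0.11 in the highest, and the median log2 ratio was 0.07 in the lowest quintile and -0.16 in the highest. The part of this dependence in the choice of members was not tested. The surroundings of the members were poor in genes, with a median of 5 other protein-coding genes within 500 kb, against 14 for all genes and 6 for genes of the lowest quintile that were not members.

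**Figure D1:**
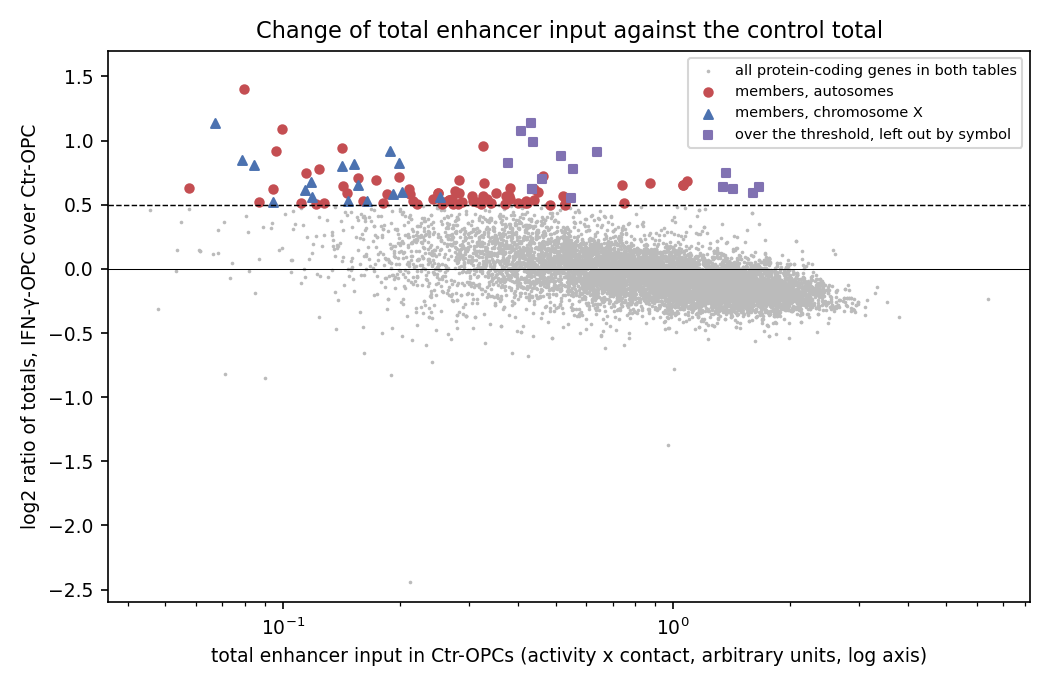
Log2 ratio of gene totals (IFN-γ-OPC over Ctr-OPC, vertical axis) against the total in Ctr-OPCs (horizontal log axis, arbitrary units), each point being 1 protein-coding gene. Grey points are all 10115 genes, coloured points are the 90 members on autosomes and on the X chromosome, squares are the 16 genes set aside by symbol, and the members sit over the low end of the totals, where the grey points also spread most widely.

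The edge of the group was not a gap. Just inside the threshold, with log2 ratios that all round to 0.50, lay Sdad1, which acts in ribosome biogenesis, the transcription factor Foxo1, and Calcrl, the receptor for calcitonin gene-related peptide and adrenomedullin. Just outside, at values that also round to 0.50, lay Ncam2, Smc4 and Adamts3.

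Activity and contact were separated with a second total that replaces measured contact by a power law of genomic distance, so that it moves with element activity alone. By this power-law total the members' median log2 ratio was 0.35, and 27 members (30.0%) reached 0.5 on their own, beside 0.83% of all genes. The power-law ratio was above 0 in 85 members, beside 25.9% of all genes. The remainder of the log2 ratio, called the contact part, was above 0 in 68 members, beside 59.7% of all genes, and was at least 0.5 in 13 members (14.4%), beside 0.267%. It made up over 50% of the log2 ratio in 40 members. These shares come from the contrast that chose the members and are no independent evidence. They divide the members into genes whose elements were more active, such as Casp12 and Igtp, and genes whose elements were about as active but in more contact, such as Zbtb33 and Zfp488.

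**Figure D2:**
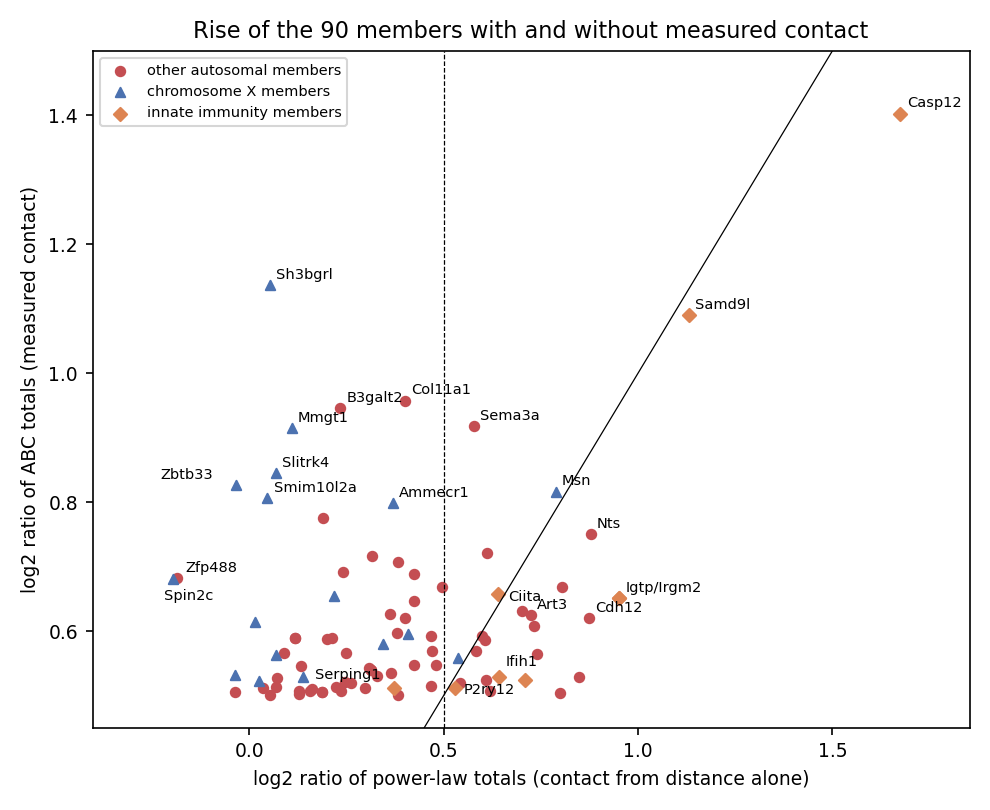
Log2 ratio of the ABC total (activity and measured contact) against the log2 ratio of the power-law total (activity with contact from distance alone) for the 90 members, IFN-γ-OPC over Ctr-OPC. Orange points are the 9 members of innate immunity, of which 8 lie at a power-law ratio of at least 0.5, with Igtp and Irgm2 among them as 1 measurement. Points far above the diagonal, such as Sh3bgrl, owe most of the ratio to contact.

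By known function, 9 members belonged to innate immunity and the interferon response. Their median log2 ratio was 0.65 by the ABC total and 0.71 by the power-law total. The power-law ratio was at least 0.5 in 8 of the 9, whereas it was so in 19 of the 81 other members. The 8 include both Igtp and Irgm2, whose TSSs share 1 contact bin, so that they count as 1 measurement here and among the GTPases below. The contact part exceeded 50% of the ratio in none of the 9. Members made up 90 of the 10115 tested genes, and in the lists of immune genes they were 0 of 18 genes of IFN-γ signalling, 1 of 5 of MHC class II and antigen processing, 2 of 3 immunity-related GTPases, 2 of 30 antiviral interferon-stimulated genes, 1 of 15 genes of cell death, 1 of 10 complement genes and serpins, and 0 of 7 PARPs. The median log2 ratio of these lists was -0.01, 0.09, 0.65, 0.03, 0.01, -0.10 and 0.13 in this order. No member was found among 26 genes of NF-kB, cytokines and CC chemokines (median 0.01), 14 of co-stimulation, checkpoint and adhesion (median -0.10), 9 of tryptophan, nitric oxide, purine and metal metabolism (median 0.07), 3 of the TRIM family (median 0.12) and 1 of the Ifi200 family (-0.01). The 16 genes set aside by symbol had a median log2 ratio of 0.72, a median power-law ratio of 0.78, and 15 of them reached 0.5 by the power-law total.

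Casp12, a caspase of the inflammatory caspase cluster, had the highest ratio of all genes. Its total was 0.0793 in Ctr-OPCs against 0.210 in IFN-γ-OPCs, a log2 ratio of 1.40, and the power-law ratio was 1.67. Its promoter activity quantile was 0.508 and 0.817. The promoter itself is never listed as an element, and only 8.26% of the rise in the total lay in listed elements. The element with the largest gain, an intronic one at chr9:5347310-5347809, 2.13 kb from the TSS, was listed in IFN-γ-OPCs only, with an activity of 0.334, and held at least 15.6% of the rise, part of which was offset by pairs listed in Ctr-OPCs only. In the Casp12 promoter a GAS motif (TTCNNNGAA) stood just upstream of the TSS, shown here in capitals on the plus strand of GRCm38, chr9:5345318-5345437.
Casp12: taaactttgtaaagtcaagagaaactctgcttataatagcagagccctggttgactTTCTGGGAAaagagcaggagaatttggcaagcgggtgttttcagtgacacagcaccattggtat

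Samd9l, an interferon-induced antiviral factor, had a total of 0.0997 in Ctr-OPCs against 0.212 in IFN-γ-OPCs, a log2 ratio of 1.09 with a power-law ratio of 1.13. It went from 0 to 4 connections, where a connection is an element with an ABC score above 0.05. The largest gain came from an element 58.4 kb away in an exon of Gm20559, chr6:3340914-3341413, which held at least 18.1% of the rise. A pair of elements in its own introns held at least 14.1% and 11.3%, and none of the 3 was matched to a Ctr-OPC element. One more element, in an intron of Vps50, had activities of 0.439 in Ctr-OPCs, where it was listed for other genes, and of 1.10 in IFN-γ-OPCs.

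Igtp and Irgm2 encode immunity-related GTPases, which attack the vacuoles of intracellular pathogens, and their annotated TSSs on chromosome 11, at 58199556 and 58199618, share 1 contact bin of 5 kb, so they count as 1 measurement. Both totals were 1.06 in Ctr-OPCs against 1.66 in IFN-γ-OPCs, a log2 ratio of 0.65, and the power-law ratio was 0.95. The listed elements went from 1 to 6, the connections from 0 to 2, and 54.7% of the rise lay in listed elements. Elements at chr11:58193364-58193863 and chr11:58191929-58193129, with activities of 1.98 and 1.69, held at least 13.6% and 11.1% of the rise. Neither was matched to an element of Ctr-OPCs. The sequences show the motifs of this locus in capitals, all on the plus strand of GRCm38: a GAS in the nearer element (chr11:58193609-58193728), a GAS between ISREs (GAAA and GAAA with any pair of bases between them, here read on the opposite strand) in an element 15.7 kb from the TSS (chr11:58183726-58183845), and a GAS next to an ISRE in the Igtp promoter (chr11:58199436-58199555).
Igtp/Irgm2 element: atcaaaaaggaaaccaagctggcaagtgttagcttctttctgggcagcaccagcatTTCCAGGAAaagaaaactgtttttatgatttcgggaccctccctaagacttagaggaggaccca
Igtp/Irgm2 far element: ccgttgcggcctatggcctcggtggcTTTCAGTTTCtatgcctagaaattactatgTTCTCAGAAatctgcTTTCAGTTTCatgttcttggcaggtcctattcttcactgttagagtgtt
Igtp: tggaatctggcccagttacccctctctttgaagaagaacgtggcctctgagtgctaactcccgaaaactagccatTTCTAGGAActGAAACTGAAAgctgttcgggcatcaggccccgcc

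Ciita, the master activator of MHC class II genes, lies 32.7 kb from Tvp23a, a gene of Golgi trafficking, and both were members. The total of Ciita was 0.739 in Ctr-OPCs against 1.17 in IFN-γ-OPCs (log2 0.66, power-law 0.64), and that of Tvp23a was 0.871 and 1.38 (log2 0.67, power-law 0.81). One intergenic element at chr16:10452455-10452954, whose activity was 2.15 in Ctr-OPCs against 5.94 in IFN-γ-OPCs, was listed for both. Its contact with Tvp23a was 0.0396 and 0.0457, and it held 36.3% of the rise of that gene. Its contact with Ciita was lower in IFN-γ-OPCs, 0.0146 and 0.0120, and it held 9.33% of that rise. The largest gain of Ciita, 17.9% of its rise, came from an element over coding sequence of Ciita at chr16:10489531-10490030, with activities of 0.727 and 1.74 and contacts of 0.0278 and 0.0556. A GAS motif (capitals) lies in that element at chr16:10489563-10489682, plus strand of GRCm38.
Ciita exon element: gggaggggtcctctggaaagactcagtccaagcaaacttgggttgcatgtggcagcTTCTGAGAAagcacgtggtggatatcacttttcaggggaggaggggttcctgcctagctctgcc

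The other 4 immune members had lower ratios. Ifih1, the cytosolic sensor of double-stranded viral RNA, had a total of 0.307 in Ctr-OPCs against 0.444 in IFN-γ-OPCs (log2 0.53, power-law 0.64) and a promoter quantile of 0.806 and 0.894. Serping1, which encodes the C1 inhibitor of complement, had a total of 0.423 and 0.604 (log2 0.51), but a power-law ratio of 0.37, the lowest of the 9. P2ry12, the ADP receptor that marks resting microglia, had a total of 0.342 and 0.488 (log2 0.51, power-law 0.53). Rgs1, a regulator of G-protein signalling in lymphocytes, had a total of 0.0869 and 0.125 (log2 0.52, power-law 0.71), and it had 2 connections in Ctr-OPCs against 4 in IFN-γ-OPCs.

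**Figure D3:**
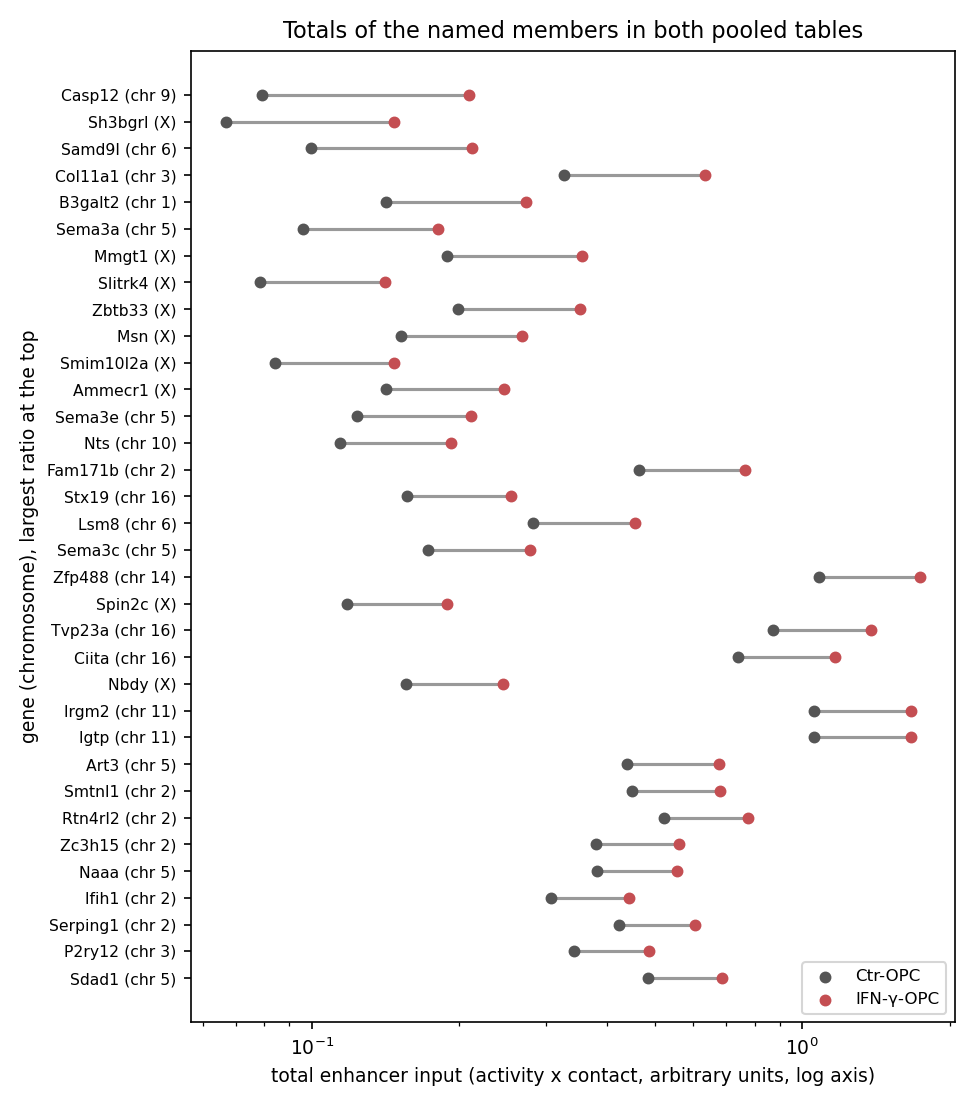
Totals of 34 members named by the rule of choice, without and with IFN-γ (log axis, arbitrary units, 1 pooled value per condition), joined by a line for each gene. The pairs span from 0.0669 to 0.147 in Sh3bgrl to 1.08 to 1.74 in Zfp488, and most lie under 1.

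Members were often neighbours. Chained by TSS distances of at most 200 kb, the 90 members fell into 77 loci, of which 11 held over 1 member and 24 members in all. Another member lay within 200 kb of 26.7% of members, beside 1.31% of all genes. Neighbours share elements and contact bins, so they do not count as separate observations: 8 members had their TSS in the same 5 kb bin as another member, as in the pairs Igtp and Irgm2, Atp6v1h and Rgs20, Zfp654 and Cggbp1, and Pkp4 and Ccdc148.

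The locus on chromosome 5 at 92278170 to 92331827 held 3 members, contains the chemokine gene Cxcl9 and borders Cxcl10, both of which were set aside by symbol. Art3, of the ADP-ribosyltransferase family, had a total of 0.440 in Ctr-OPCs against 0.678 in IFN-γ-OPCs (log2 0.62, power-law 0.72), a promoter quantile of 0.462 and 0.820, and 0 and 3 connections. Naaa, a lysosomal amidase of lipid mediators, had a total of 0.382 and 0.556 (log2 0.54), and Sdad1 one of 0.485 and 0.686 (log2 0.50). In Art3, 80.6% of the rise lay in listed elements. An element in the UTR of Art3 at chr5:92332408-92332907, 0.83 kb from the TSS, was listed in IFN-γ-OPCs only, with an activity of 2.56, and held at least 40.6% of the rise of Art3 while also being listed for Cxcl9. An element in an intron of Art3 at chr5:92353477-92353976 had the largest change in activity of all member elements, from 0.296 to 3.31 (log2 3.48), and a second Ctr-OPC element that it overlaps had 0.503. It held at least 14.2% of the rise of Art3, was listed for Naaa and Sdad1 too, and carries a GAS motif, in capitals at chr5:92353624-92353743 on the plus strand of GRCm38.
Art3 intron element: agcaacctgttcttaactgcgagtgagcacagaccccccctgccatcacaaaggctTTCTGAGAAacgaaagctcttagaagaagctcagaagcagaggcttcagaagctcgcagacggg

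The locus on chromosome 2 at 84775444 to 84886710 also held 3 members: Serping1, Smtnl1, a smoothelin-like protein of muscle, and Rtn4rl2, a Nogo receptor homologue that binds myelin inhibitors of axon growth. The total of Smtnl1 was 0.450 in Ctr-OPCs against 0.680 in IFN-γ-OPCs (log2 0.60), and that of Rtn4rl2 was 0.522 and 0.774 (log2 0.57). For all 3 genes IFN-γ-OPCs listed an intergenic element at chr2:84831721-84832220, whose activity was 0.846 and 2.47. It held 13.4% of the rise of Smtnl1 and at least 4.88% of that of Serping1. Elsewhere on chromosome 2, Fam171b had a total of 0.464 and 0.766 (log2 0.72, power-law 0.61), and its neighbour Zc3h15, a zinc-finger protein, one of 0.380 and 0.562 (log2 0.57). The largest gain of Fam171b was an intronic element 1.85 kb from the TSS, listed in IFN-γ-OPCs only, with at least 23.0% of the rise.

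Genes of axon guidance, adhesion and matrix made up 11 members, with a median log2 ratio of 0.69 and a median power-law ratio of 0.47. They included 3 class 3 semaphorins, secreted guidance cues of which Sema3a is known to hold back OPC migration and maturation. The total of Sema3a was 0.0960 in Ctr-OPCs against 0.181 in IFN-γ-OPCs (log2 0.92, power-law 0.58), that of Sema3e was 0.124 and 0.212 (log2 0.78, power-law 0.19), and that of Sema3c was 0.173 and 0.279 (log2 0.69, power-law 0.42). The other tested members of the class did not reach the threshold, with log2 ratios of 0.17 for Sema3d, -0.02 for Sema3f, -0.07 for Sema3b and -0.12 for Sema3g. The elements with the largest gains were intronic and distant. The largest gain of Sema3a lay 138 kb inside the gene at chr5:13263071-13263570, where activity was 2.36 and 2.13, about equal, while contact was 0.00123 and 0.0101. The deposited contact before the model's pseudocount was 0 in Ctr-OPCs, so that ratio of contacts depends on the pseudocount. The largest gain of Sema3e, 496 kb from its TSS, lay in another intron of Sema3a and held at least 8.91% of the rise, and that of Sema3c lay 73.7 kb inside the gene with at least 9.90%.

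Col11a1, which encodes a chain of type XI collagen, had a total of 0.326 in Ctr-OPCs against 0.633 in IFN-γ-OPCs (log2 0.96, power-law 0.40). An exonic element 1.64 kb from the TSS at chr3:114031763-114032606 held 27.7% of the rise, with activities of 1.43 and 2.11 and contacts of 0.0344 and 0.0636. Msn encodes moesin, which links the membrane to actin, and its total was 0.152 and 0.268 (log2 0.82, power-law 0.79). An intronic element 0.971 kb from its TSS, listed in IFN-γ-OPCs only, held at least 28.4% of the rise. The synaptic adhesion gene Slitrk4 differed from Msn in that its total of 0.0784 and 0.141 (log2 0.85) came with a power-law ratio of 0.07. In Tanc1, which encodes a scaffold of postsynaptic densities, an intronic element listed in IFN-γ-OPCs only held at least 18.4% of the rise, and the stretch chr2:59616629-59616748 (plus strand of GRCm38) shows its ISRE and GAS motifs in capitals.
Tanc1 intron element: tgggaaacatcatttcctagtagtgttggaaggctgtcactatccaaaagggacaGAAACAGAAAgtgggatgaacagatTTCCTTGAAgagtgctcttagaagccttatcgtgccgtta

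Transcription and chromatin genes made up 11 members, with a median log2 ratio of 0.60 and a median power-law ratio of 0.31. Zfp488, a zinc-finger regulator that promotes oligodendrocyte differentiation together with Olig2, was the member with the highest total, 1.08 in Ctr-OPCs against 1.74 in IFN-γ-OPCs (log2 0.68), and its power-law ratio was -0.18. A single pair carried most of this difference. The intronic element at chr14:33974753-33975252, 3.76 kb from the TSS, had activities of 3.04 and 3.57, while its contact with Zfp488 was 0.0243 and 0.170 (log2 2.81) and its ABC score 0.0682 and 0.349. That pair held 81.4% of the rise. The same element was not in more contact with its other tested targets listed in both tables, at log2 contact ratios of -0.87 for Rbp3, -0.18 for Gm5460 and -0.15 for Anxa8.

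Zbtb33, the methyl-CpG-binding factor Kaiso, had a total of 0.199 in Ctr-OPCs against 0.353 in IFN-γ-OPCs (log2 0.83) with a power-law ratio of -0.03. The paralogue-rich gene Spin2c, a spindlin, had a total of 0.118 and 0.189 (log2 0.68) and the lowest power-law ratio of the members, -0.20. The sum of its listed elements was lower with IFN-γ than without.

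Among 11 receptors and signalling genes, with a median log2 ratio of 0.53, Nts, the precursor of the neuropeptide neurotensin, stood highest. Its total was 0.114 in Ctr-OPCs against 0.192 in IFN-γ-OPCs (log2 0.75, power-law 0.88), and an intronic element listed in IFN-γ-OPCs only held at least 14.9% of the rise. Receptors of this group lay lower, among them Gnrhr for gonadotropin-releasing hormone at 0.143 and 0.224 (log2 0.65), the serotonin receptor Htr1f at 0.127 and 0.181 (log2 0.51) and the activin receptor Acvr1c at 0.281 and 0.399 (log2 0.51). The calcium channel Itpr1 had 0.419 and 0.605 (log2 0.53), and Wls, which carries Wnt proteins to the cell surface, had 0.146 and 0.220 (log2 0.59).

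RNA handling genes numbered 6, with a median log2 ratio of 0.57 and a median power-law ratio of 0.25. The foremost of these, Lsm8, part of the ring that binds U6 RNA, had a total of 0.283 and 0.457 (log2 0.69, power-law 0.24). Its largest gain lay 402 kb away in an intron of Cttnbp2. The matched elements there had activities of 6.11 in Ctr-OPCs against 4.21 in IFN-γ-OPCs, and contacts of 0.00326 and 0.00805. The Ctr-OPC element also overlaps a second IFN-γ-OPC element listed for Lsm8, with an activity of 2.16. The difference in activity therefore depends on the match.

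Enzymes and metabolic genes numbered 13, with a median log2 ratio of 0.56. B3galt2, a galactosyltransferase, had a total of 0.142 in Ctr-OPCs against 0.274 in IFN-γ-OPCs (log2 0.95, power-law 0.23), and a pair of its elements had at least doubled contact. Its relative B3galt1 was also a member at 0.373 and 0.552 (log2 0.56), while B3galt5, at -0.14, was not. Among the other enzymes, the glycerol enzymes Gk, at 0.114 and 0.174 (log2 0.61, power-law 0.02), and Gpd2, at 0.334 and 0.487 (log2 0.55, power-law 0.48), differed in the part of contact, which was 0.60 in Gk and 0.07 in Gpd2.

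Transport and membrane traffic genes numbered 9, with a median log2 ratio of 0.59. Mmgt1, a membrane magnesium transporter, had a total of 0.189 and 0.355 (log2 0.91, power-law 0.11). Stx19, a syntaxin of membrane fusion, had 0.156 and 0.255 (log2 0.71, power-law 0.38). In Mfsd6, of the major facilitator family, an intergenic element 1.02 kb from the TSS, listed in IFN-γ-OPCs only, held at least 23.3% of the rise, and the stretch chr1:52728446-52728565 (plus strand of GRCm38) shows its ISRE in capitals.
Mfsd6 element: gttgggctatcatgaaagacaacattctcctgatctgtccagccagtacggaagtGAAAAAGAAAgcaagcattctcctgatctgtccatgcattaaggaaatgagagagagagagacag

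The 20 members without a role given here, such as Asb4, Sestd1, Klhl34 and Pkhd1, had a median log2 ratio of 0.54, a median power-law ratio of 0.24, and a contact part over 50% of the ratio in 12.

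The X chromosome held 17 of the 90 members (18.9%), although it holds 3.38% of the genes listed in both tables. Sh3bgrl, a small thioredoxin-like protein, was the foremost, with a total of 0.0669 in Ctr-OPCs against 0.147 in IFN-γ-OPCs (log2 1.14), and its power-law ratio was 0.05. The median power-law ratio of the 17 was 0.07 and the median contact part 0.50, and only Msn and Mbtps2 reached 0.5 by the power-law total. Smim10l2a, a small membrane protein, had 0.0844 and 0.147 (log2 0.81, power-law 0.05), Ammecr1 had 0.142 and 0.246 (log2 0.80, power-law 0.37), and Nbdy, a microprotein of mRNA decapping, had 0.156 and 0.245 (log2 0.65).

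One element of the X chromosome was listed for Smim10l2a and Mmgt1. In an intron of Ints6l at chrX:56455707-56456206, with activities of 2.28 in Ctr-OPCs against 3.10 in IFN-γ-OPCs, it held 76.7% of the rise of Smim10l2a and at least 6.52% of that of Mmgt1. Its contact with Smim10l2a was 0.00123 and 0.0165, the first being the model's pseudocount since the deposited contact was 0. Contact with Ints6l itself was lower in IFN-γ-OPCs (log2 -0.29), as was contact with Zfp449 (log2 -1.87).

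Values on the X chromosome were low and variable in both directions. Its 342 genes had a median Ctr-OPC total of 0.231, and their log2 ratios had an SD of 0.29, against 0.18 on autosomes. Members made up 4.97% of them, and 2.34% had a ratio of -0.5 or less. Within the lowest quintile of the mean total, 5.15% of X-linked genes and 3.48% of autosomal genes were members. Listed pairs with a deposited contact of 0 made up 8.85% of X-linked pairs in Ctr-OPCs against 3.65% in IFN-γ-OPCs, beside 2.17% and 1.58% over all pairs. The promoter activity quantile of Xist, the RNA of the inactive X chromosome, was 0.472 and 0.467. The part of these values in the X-linked ratios was not tested. The autosomal members lay mainly on chromosome 2 with 16, chromosomes 1 and 6 with 10 each and chromosome 16 with 8, while chromosomes 7, 8 and 12 had none. As a share of the tested genes of the chromosome these were 2.17%, 1.58%, 1.84% and 2.43%, so chromosome 16 stood highest of the autosomes.

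**Figure D4:**
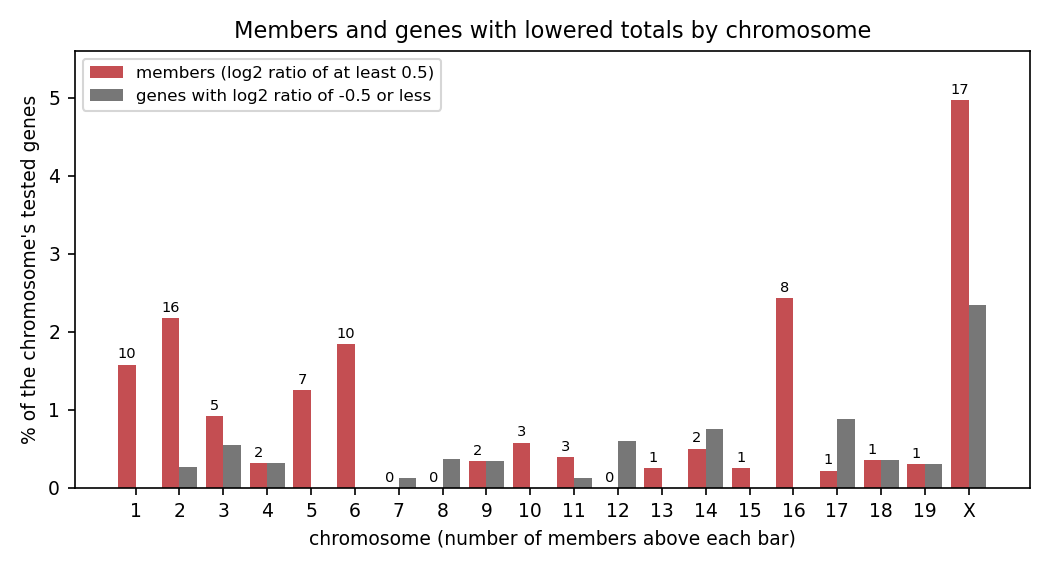
Share of tested protein-coding genes per chromosome, in percent, that were members (log2 ratio of totals of at least 0.5) or had a log2 ratio of -0.5 or less. The X chromosome stands highest for both, at 4.97% and 2.34%.

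More of the members gained connections than lost them. Treated cells had more connections in 33 members (36.7%), beside 14.7% of all genes, and fewer in 7 (7.78%), beside 12.8%. The number of listed elements was higher in 40 members (44.4%), beside 35.1%, and lower in 26 (28.9%), beside 27.9%. Elements with a score above 0.1 were more numerous in 22 members (24.4%), beside 3.38% of all genes. An ABC score is a share of the gene's own total, so a gene whose elements all gain equally keeps its scores. Promoter activity is part of the total as well, and its quantile was higher by at least 0.1 in 17 members (18.9%), beside 5.84% of all genes, and lower by at least 0.1 in 3 (3.33%), beside 6.41%.

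The listed elements held a minor part of most rises. Their median share of the rise was 26.6%, and 14 members had over 50% of the rise there. The unlisted part, made of the promoter and of elements with scores under 0.02, was higher in IFN-γ-OPCs in all 90 members, while the listed sum was lower in 8. An element with at least 10% of the rise was found for 51 members, one with at least 20% for 28, and one with at least 50% for 5. The element with the largest gain lay within 10 kb of the TSS in 43 members, inside the member gene in 31, and over 100 kb away in 24. For 57 members it was a pair listed in IFN-γ-OPCs only. Of all pairs that IFN-γ-OPCs listed for members, 211 of 327 (64.5%) had no matched pair in the Ctr-OPC table, beside 45.4% of the pairs of all tested genes. Since these pairs enter the totals of the rule, nothing is read from the difference. In 40 of the 57 the element had no mutual best match among the Ctr-OPC elements, and in 17 it had a match listed for another gene.

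IFN-γ-OPCs listed 286 different elements for the members, of which 128 (44.8%) were intronic, 108 (37.8%) intergenic and 28 (9.79%) over coding sequence. For 34 of them the list held over 1 member. For 124 (43.4%) no Ctr-OPC element was the mutual best match, beside 46.2% of all elements, so this share was near that of the whole table. Some of the 124 can still overlap a Ctr-OPC element that was matched to a neighbouring element. Of the other 162, activity was at least doubled in 14 (8.64%), beside 2.66% of all matched elements. The 14 included the elements of Art3, Ciita, Samd9l and the Serping1 locus described above. For an intergenic element at chr2:84093777-84095142, listed for Calcrl and Fam171b and 331 kb and 282 kb from their TSSs, the doubling depends on the match, since its activity of 4.04 stands against 0.766 in one overlapping Ctr-OPC element and 3.14 in the other. The other 13 were also doubled against the most active Ctr-OPC element that they overlapped.

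In the 116 pairs of member and element listed in both tables, the median log2 ratio was 0.13 for activity and 0.40 for contact, beside -0.11 and 0.06 over all pairs. The contact ratio exceeded the activity ratio in 79 of the 116 (68.1%), beside 60.8% of all pairs. Contact was at least doubled in 20 pairs of 19 members (17.2%), beside 2.57%, and in 4 of the 20, those of Smim10l2a, Sema3a, Mdfic and Wasl, the deposited contact was 0 in Ctr-OPCs. For Atp6v1h, a subunit of the vacuolar proton pump, and Rgs20, a regulator of G-protein signalling, whose TSSs share a bin, an intronic element at chr1:5022855-5023354 had activities of 3.50 and 3.94 and contacts of 0.00657 and 0.0173, and held 35.7% of the rise of each.

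**Figure D5:**
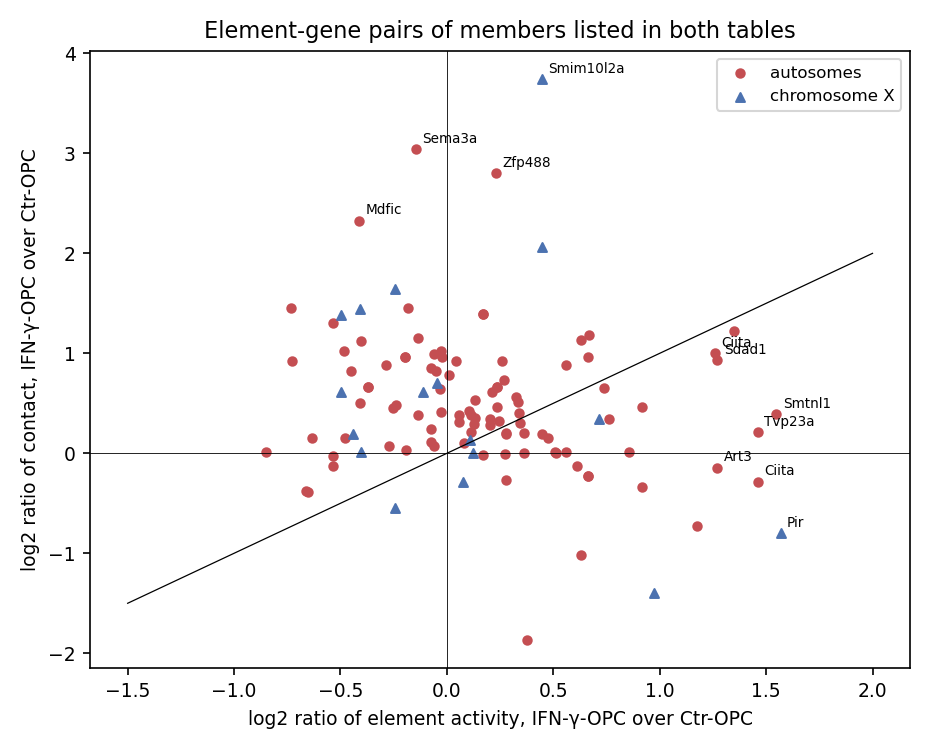
Log2 ratio of contact against log2 ratio of element activity (IFN-γ-OPC over Ctr-OPC) for the 116 pairs of member gene and element listed in both tables. Points above the diagonal, 79 of the 116, had the larger ratio in contact, and the highest is the pair of Smim10l2a with the element in Ints6l, whose deposited contact was 0 in Ctr-OPCs.

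Motifs of interferon-responsive factors were counted in promoters, 250 bases before to 50 after each start, and in the central 500 bases of the elements, on both strands. Of 69 members with a RefSeq promoter, 6 (8.70%) held an ISRE, beside 2.67% of the promoters of all genes, namely Bmt2, Esr1, Ifih1, Igtp, Lurap1l and Wls. GAS was found in 5 (7.25%), beside 6.74%, those of Casp12, Dmac1, Igtp, Mdfic and Sema3e. The AP-1 motif TGANTCA was found in 3 (4.35%), beside 5.28%, and the kappa B motif (GGGA and TTCC with any pair of bases between them) in 2 (2.90%), beside 1.53%. In the 286 elements, GAS was found in 56 (19.6%), beside 15.2% of all elements, ISRE in 36 (12.6%), beside 8.60%, AP-1 in 56 (19.6%), beside 16.2%, and kappa B in 1 (0.350%), beside 1.90%. ISRE was found in 24 of the 124 elements without a Ctr-OPC counterpart (19.4%) and in 9 of the 148 with a counterpart whose activity was not doubled (6.08%), beside 10.9% and 6.40% of all elements of these classes. GAS was found in 17.7% and 19.6% of the same classes of member elements, beside 15.9% and 14.4%. Of the 14 elements with doubled activity, 5 held a GAS and 3 an ISRE, beside 21.6% and 16.3% of all elements with doubled activity. A match describes the letters of a window and no binding was measured. The stretches printed above were picked because they hold a match. Neither motif was found in the shared element of Ciita and Tvp23a, the element of Igtp and Irgm2 at chr11:58191929-58193129, or the shared element of the Serping1 locus. The same holds for the elements with the largest gains of Samd9l and Casp12.

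The member list depended on how low totals were treated, and 14 genes were over 0.5 both by the power-law total and after centring the ratios within quintiles of the Ctr-OPC total: Casp12, Samd9l, Sema3a, Msn, Nts, Fam171b, Tvp23a, Ciita, Igtp, Irgm2, Speer2, Art3, Cdh12 and Rnf152. Of these, 5 were immune genes, Casp12, Samd9l, Ciita, and Igtp with Irgm2, which count as 1 measurement. Cdh12, a cadherin of neurons, had a total of 0.0945 in Ctr-OPCs against 0.145 in IFN-γ-OPCs (log2 0.62, power-law 0.87), and an intronic element 1.60 kb from its TSS, listed in IFN-γ-OPCs only, held at least 56.7% of the rise. In pooled material, a higher input per cell and a larger share of cells with that input cannot be told apart.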

How the data were processed

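The 2 deposited tables, 1 per condition, were each made by the authors from 3 pooled H3K27ac-HiChIP libraries with the ABC model. The submitters' processing notes name HiC-Pro and the build mm10. For activity the authors deposited a signal that combines ATAC-seq coverage with H3K27ac CUT&RUN coverage. Contact in 5 kb bins and its product with activity were deposited as score values without a fixed range. The ABC score and the promoter activity quantile are deposited as a fraction, and the tables start at a score of 0.02. How activity and contact were scaled between conditions, and the depth, are not given in the sources used here.

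A gene's total was the median over its listed pairs of the product divided by the score, and the power-law total was obtained likewise from the power-law columns. Pairs were matched between tables by mutual best overlap of at least 1 bp with the same gene. The rise was the IFN-γ-OPC total minus the Ctr-OPC total. An element's part of the rise was the difference in its product. A pair without such a match counts as listed in 1 table only, even where its element overlaps one that was matched to a neighbour. Its product in the other table was taken as at most the limit that the lowest listed score allows, and the gain is given as "at least". Gene types, TSSs and features came from GENCODE M21 (GRCm38), and sequences from RefSeq promoters (GRCm38.p6, 250 bases before to 50 after the start, 69 of 90 members and 6971 tested genes matched by symbol) and the GRCm38 genome.

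Named genes were the 20 members with the highest ratios, members in the gene lists, members of the 5 loci with most members, and the genes next to the threshold. A few of the genes that this rule names are not reported here. Genes named besides these, among them Rgs1, Tanc1, Mfsd6, Zfp654 and those of the motif and doubled-contact counts, were chosen after their values were seen. Members and lists were chosen with earlier results of these data known, and the functional groups were made after the member list was known and support nothing. No test between conditions exists with 1 pooled table each. The scripts were tested on simulated data without noise, which checks the arithmetic only. Columns of other series numbered 0. Python 3.11.15, pandas 2.3.3, NumPy 2.4.6, matplotlib 3.10.9 and pyfaidx 0.9.0.4 were used.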

Additional observations from a re-analysis of the deposited data

How the results depend on the processing

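The number of members was 90 when the total was taken from the highest-scoring pair or from the mean over pairs, 68 when at least 2 listed pairs were required in each table, and 106 with the symbols kept in. It was 158 when ratios were centred on the median of all genes (all 90 among them), 44 when centred within quintiles of the Ctr-OPC total (36 shared), 3 at a log2 ratio of at least 1 and 195 at 0.4. The power-law total gave 67 genes, of which 27 were shared. Among alternatives chosen after seeing the data, centring within chromosomes gave 139 (86 shared), centring within quintiles of the mean total 65 (51 shared), and leaving out the X chromosome 73. The share of members that gained connections was 36.7% at a score above 0.05 and 24.4% at a score above 0.1. The share with another member nearby was 26.7% within 200 kb, 36.7% within 500 kb and 22.2% within 100 kb. Matching with 50% reciprocal overlap changed no direction (contact above activity in 70.1% of pairs). Counting promoter motifs without shared loci left GAS (7.27%) and ISRE (9.09%) above the share of all genes, whereas AP-1 went from below it to above it (5.45%, beside 5.28%). The cause of these differences was not tested. No paired analysis was possible because only pooled values of the 3 libraries per condition were at hand, and for the same reason no library could be left out. How many reads lie behind a total is unknown.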
